A study of Mus musculus with 18 samples.

Results

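Endothelial genes were followed in B16F10 melanoma tumours grown in mice and, beside them, in the same melanoma line in culture. The 10 genes, Pecam1, Cdh5, Kdr, Flt1, Tek, Tie1, Vwf, Emcn, Eng and Esam, were picked by symbol from a count table of 23453 gene symbols as textbook endothelial genes, with earlier results of these data known. Their levels in tumours beside cultures may have entered that choice and are therefore given as a description, with no test. Their differences between shHrs and shCTL may have entered it too, so the 10 genes are not an unselected list for those tests. The study asked what loss of Hgs does to the melanoma cells. Hgs encodes Hrs, a subunit of the ESCRT machinery that sorts ubiquitinated membrane proteins on endosomes.

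B16F10 is a melanoma line of C57BL/6 mice. The 10 tumour libraries comprised 5 with a short hairpin RNA against Hgs (shHrs) and 5 with a scrambled hairpin (shCTL). The 8 culture libraries comprised 2 batches, each with 2 shHrs and 2 shCTL libraries. In every group the hairpin had been delivered to the B16F10 cells by lentivirus, followed by drug selection. Hosts were female wild type C57BL/6 mice, 6 to 8 weeks old, with an intact immune system. The submitters call the tumours both xenografts and homografts. The labels do not say whether a tumour library held 1 animal or a pool, where the tumours were grown, or whether culture libraries came from separate cultures, so p-values measure the spread between these libraries.

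Endothelial cells line blood vessels. In a transplanted tumour the vessels are formed by the host, whose cells were not given the hairpin. Vascular endothelial growth factors act through the tyrosine kinase receptors encoded by Kdr and Flt1, and angiopoietins act through the receptor encoded by Tek. The junctions between the cells are held by adhesion proteins such as those encoded by Cdh5, Pecam1 and Esam. In a piece of whole tumour, fewer endothelial cells and less RNA per endothelial cell cannot be told apart.

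Promoter sequence was held for 6 of the 10 genes in the RefSeq set used here, on GRCm38.p6, and 3 windows are shown because they stand for the different behaviours described below. Kdr was at 0 in every culture, Tie1 varied between tumours with most of the other endothelial genes, and Eng was as high in cultures as in tumours. Each window runs from 250 bases before to 50 bases after the gene's start, on the gene's own strand, with the start as RefSeq places it. GENCODE mouse release M21 places the start of Tie1 further upstream, at base 118490061, so most of that window lies inside the gene by that annotation. Capitals mark GGAA and its reverse complement TTCC, the core letters recognised by ETS factors, a family that includes regulators of endothelial genes.
Kdr, chr5:75978406-75978705, minus strand: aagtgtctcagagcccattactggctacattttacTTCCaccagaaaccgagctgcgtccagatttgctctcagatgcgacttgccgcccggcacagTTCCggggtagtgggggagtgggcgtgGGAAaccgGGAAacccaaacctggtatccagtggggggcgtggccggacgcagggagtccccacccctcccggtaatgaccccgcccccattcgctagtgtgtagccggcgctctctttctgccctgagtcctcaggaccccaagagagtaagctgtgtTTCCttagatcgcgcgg
Tie1, chr4:118489800-118490099, minus strand: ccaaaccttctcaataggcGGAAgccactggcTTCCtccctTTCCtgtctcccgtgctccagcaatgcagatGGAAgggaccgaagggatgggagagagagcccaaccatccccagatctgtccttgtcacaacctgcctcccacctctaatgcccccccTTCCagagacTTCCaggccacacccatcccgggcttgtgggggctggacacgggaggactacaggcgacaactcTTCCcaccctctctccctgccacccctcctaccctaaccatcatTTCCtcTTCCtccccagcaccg
Eng, chr2:32646345-32646644, plus strand: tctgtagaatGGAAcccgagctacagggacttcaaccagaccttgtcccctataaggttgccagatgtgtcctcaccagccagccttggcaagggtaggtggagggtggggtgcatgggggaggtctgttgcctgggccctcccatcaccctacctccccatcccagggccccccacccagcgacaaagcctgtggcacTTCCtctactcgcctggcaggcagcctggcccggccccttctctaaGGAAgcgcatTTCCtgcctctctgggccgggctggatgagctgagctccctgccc
The Kdr window held 5 matches, the Tie1 window 9 and the Eng window 4. Among all 32851 promoter windows of the same length, 96.0% held at least 1 match, with a median of 3. Windows with at least as many matches as Tie1 made up 1.59% of them, at least as many as Kdr 28.6%, and at least as many as Eng 46.3%. Of the windows not shown, that of Emcn held 6 matches (15.7% held at least as many), Flt1 4 (46.3%) and Tek 2 (84.6%). Flt1 and Tek, both near 0 in cultures, thus held no more matches than Eng, so the number of matches did not follow the behaviour of the genes. A match is a description of letters and not a binding site.

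Total counts ran from 17.6 M to 27.7 M in tumours and from 18.5 M to 27.6 M in cultures (M, mega). Levels are given as CPM, each gene's counts scaled to a common library size after TMM normalisation. The hairpin's target was low in every shHrs library. Hgs averaged 21.5 ± 5.29 CPM in shHrs tumours and 104 ± 7.02 CPM in shCTL tumours (SD, n = 5 each), which gave a log2 ratio of -2.28 (SE 0.16, adjusted p = 0.000106 by edgeR's quasi-likelihood test with Benjamini-Hochberg adjustment). In cultures it averaged 37.8 ± 6.31 CPM with shHrs and 103 ± 8.40 CPM with shCTL (SD, n = 4 each), and its adjusted p by edgeR was 0.0502. The melanocyte enzyme gene Dct averaged 7058 ± 1217 CPM in shHrs tumours and 7243 ± 642 CPM in shCTL tumours. Of 8 melanocyte genes, 5 were on the positive side (median log2 ratio 0.0156), and 0 were called by edgeR or limma voom. DESeq2 called 1, Mlana, at 1246 ± 276 CPM in shHrs tumours and 853 ± 69.9 CPM in shCTL tumours. Of 13215 genes tested in tumours, 72 passed an adjusted p of 0.05, 31 of them higher and 41 lower in shHrs tumours. An unadjusted p under 0.05 was reached by 14.1% of them, DESeq2 called 4.15% and limma voom 0.59%.

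Set beside the cultures, the genes fell into 3 kinds. Eng, which encodes endoglin, a co-receptor for ligands of the TGF-beta family, was as abundant in cultured melanoma cells as in tumours. It averaged 302 ± 28.2 CPM over the 10 tumours and 378 ± 83.9 CPM over the 8 cultures (SD), so cultures stood at 125% of tumours. Vwf, which encodes von Willebrand factor, the large clotting glycoprotein stored in endothelial cells and platelets, was low but present in every culture. It averaged 57.9 ± 21.9 CPM over tumours and 3.31 ± 4.37 CPM over cultures, which is 5.71% of the tumour level. The highest culture held 13.9 CPM of Vwf and the lowest tumour 29.0 CPM.

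The other 8 genes were at or near 0 in culture. Kdr and Emcn, which encodes the sialomucin endomucin, had 0 counts in all 8 cultures. Against a floor of 3 counts over the 8 cultures together, Kdr was at least 1180-fold and Emcn at least 707-fold higher in tumours, a bound that covers counting error only. Over the 8 cultures Tie1 had 2 counts, Cdh5 3, Flt1 6, Tek 10, Pecam1 22 and Esam 24. No culture held more than 9 counts of any of them. As a share of the tumour level, cultures stood between 0.0436% for Cdh5 and 3.19% for Tek, the gene with the lowest tumour level. Only Vwf and Eng passed the filter on low counts in cultures, whereas 10 of 10 passed it in tumours. Kind of sample and any difference in how tumours and cultures were handled cannot be told apart, so no test was made of tumours against cultures.

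**Figure D1:**
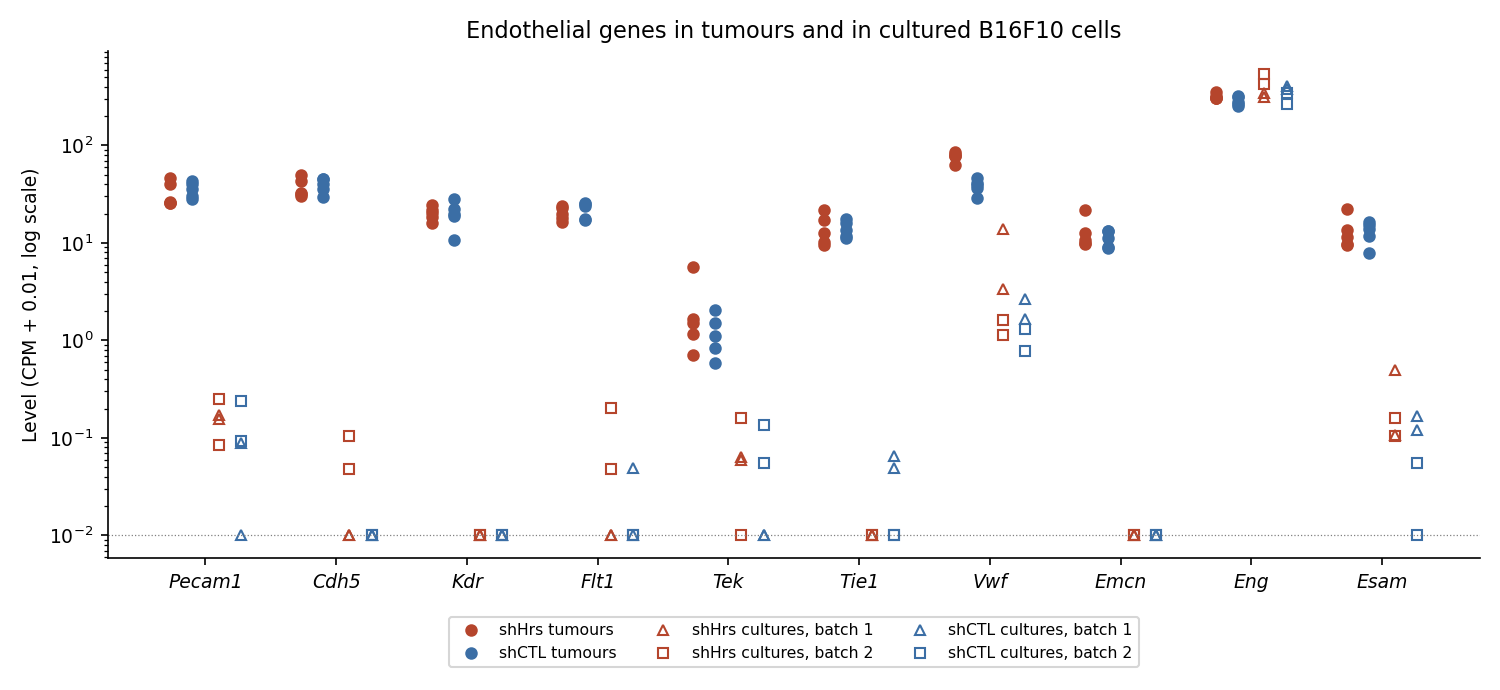
Level of each endothelial gene as CPM + 0.01 on a log axis, with tumours as filled points left of cultures as open points; colours mark shHrs and shCTL, and each point is a library. Eng lies at similar levels in both, Vwf is present but lower in cultures, and the other 8 genes lie at or near 0 in cultures.

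Compared per length of the gene's exons, as CPM per kilobase over the 10 tumours, Eng stood far above the rest at 74.7 ± 6.97 (SD). Cdh5 followed at 9.09 ± 1.73, then Pecam1 at 5.49 ± 1.27, Esam at 4.59 ± 1.47 and Vwf at 3.60 ± 1.36 CPM per kilobase. Tie1 stood at 2.87 ± 0.793, Emcn at 2.23 ± 0.707, Kdr at 2.22 ± 0.528, Flt1 at 1.56 ± 0.263 and Tek at 0.352 ± 0.309 CPM per kilobase. Ranges over the 10 tumours overlapped between all neighbours in this order except between Eng and Cdh5 and between Flt1 and Tek. The length is the union of all annotated exons, which lowers the value of genes with many long isoforms. Vwf held a higher place in shHrs tumours, at 4.82 ± 0.569 CPM per kilobase, than in shCTL tumours, at 2.39 ± 0.393.

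With knockdown of Hgs in the tumour cells, Vwf was the gene of the 10 that differed. Vwf had 77.4, 78.4, 62.3, 82.3 and 86.5 CPM in shHrs tumours, against 39.2, 36.2, 45.9, 29.0 and 41.4 CPM in shCTL tumours. All 5 shHrs tumours lay above the highest shCTL tumour, a gap that 1.99% of all genes tested also showed in this direction and 4.27% in either. Vwf rose 2.01-fold in shHrs tumours, with a log2 fold change of 1.01 (SE 0.13, adjusted p = 0.00739 by edgeR's quasi-likelihood test with Benjamini-Hochberg adjustment). It was the 1 call among the 10 genes, where 0.545% of all genes tested were called in either direction, 0.235% as higher and 0.31% as lower. Since the 10 genes were picked with earlier results known, that count is a description only. Vwf was the third by adjusted p and the eighth by fold change of the 31 genes called higher. Without each tumour in turn its log2 fold change ran from 0.934 to 1.08, with adjusted p from 0.00824 to 0.0294. The mouse gene lies at chr6:125546774-125686679 on GRCm38 (GENCODE mouse release M21), on the plus strand.

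**Figure D2:**
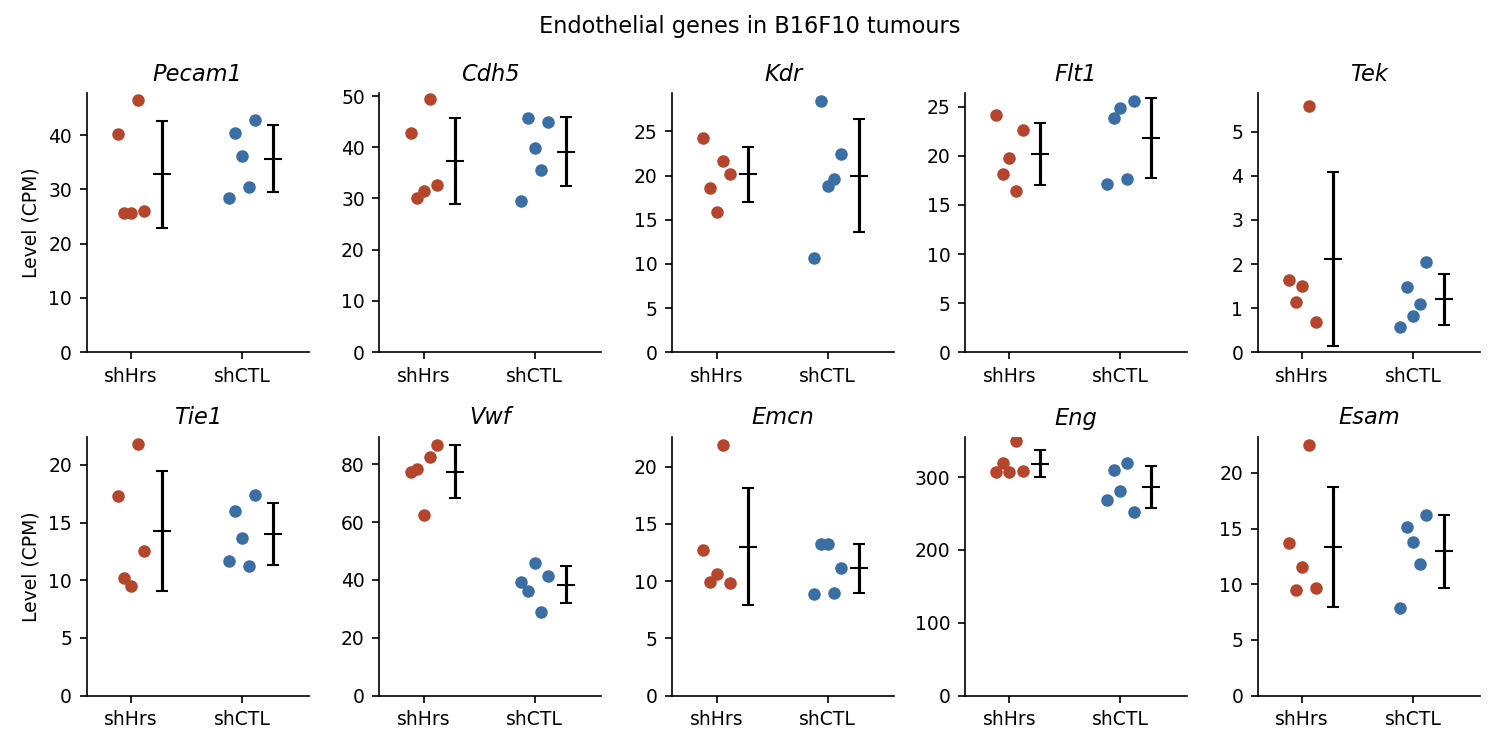
Level of each endothelial gene in CPM in the 10 tumours, with shHrs tumours on the left and shCTL tumours on the right of each panel; points are libraries, and the bar beside them gives the mean and SD. The groups do not overlap for Vwf and overlap for the other 9 genes.

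Eng had 306, 320, 307, 350.1 and 309 CPM in shHrs tumours, against 269, 310.3, 280.3, 319.9 and 252 CPM in shCTL tumours. The groups overlapped, although all 5 shHrs tumours lay above the median of the shCTL tumours. The log2 fold change of 0.15 (SE 0.083) did not pass the threshold, with an adjusted p of 0.466 by edgeR with Benjamini-Hochberg adjustment. An interval of 2 standard errors ran from -0.02 to 0.32.

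Among the growth factor receptors, neither group stood apart. Kdr, the main signalling receptor for Vegfa on endothelial cells, had 24.3, 18.6, 15.9, 21.6 and 20.2 CPM in shHrs tumours, against 10.7, 28.4, 18.9, 19.6 and 22.5 CPM in shCTL tumours. Flt1, which encodes a receptor that also exists as a soluble decoy, had 24.2, 18.2, 19.7, 16.4 and 22.6 CPM in shHrs tumours, against 17.1, 23.9, 24.8, 17.7 and 25.5 CPM in shCTL tumours. In both genes the shHrs values lay inside or close to the range of the shCTL values. The log2 fold change was 0.0059 for Kdr, with an interval of 2 standard errors from -0.43 to 0.44, and -0.11 for Flt1, with an interval from -0.41 to 0.18. The intervals leave room for differences of about that size in either direction.

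The angiopoietin receptor gene Tek was the lowest of the 10 and the most uneven. It had 1.637, 1.145, 1.495, 5.596 and 0.692 CPM in shHrs tumours, against 0.580, 1.48, 0.820, 1.09 and 2.05 CPM in shCTL tumours. The value of shHrs tumour 4 stood far above the other 9. The log2 fold change was 0.81 (SE 0.56, adjusted p = 0.578 by edgeR with Benjamini-Hochberg adjustment), and 0.03 without that tumour. Tie1, which encodes a related receptor that modulates Tek signalling, averaged 14.3 ± 5.18 CPM in shHrs tumours and 14.0 ± 2.69 CPM in shCTL tumours (SD, n = 5 each), and its log2 ratio was 0.03 (SE 0.24). Its sign turned to -0.19 without shHrs tumour 4.

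The junction and surface genes also overlapped between the groups. Cdh5, which encodes VE-cadherin, had 42.8, 30.2, 31.4, 49.5 and 32.7 CPM in shHrs tumours, against 29.6, 45.8, 39.8, 35.5 and 44.9 CPM in shCTL tumours. Pecam1, which encodes the adhesion molecule CD31, had 40.1, 25.7, 25.7, 46.5 and 26.0 CPM in shHrs tumours, against 28.4, 40.3, 36.1, 30.5 and 42.8 CPM in shCTL tumours. In both genes shHrs tumours 1 and 4 were high and the other 3 shHrs tumours low, while shCTL tumours 2, 3 and 5 lay above shCTL tumours 1 and 4. The log2 fold change was -0.07 (SE 0.17) for Cdh5 and -0.12 (SE 0.20) for Pecam1, neither past the threshold. Emcn averaged 13.0 ± 5.10 CPM in shHrs tumours and 11.1 ± 2.16 CPM in shCTL tumours. Esam, an adhesion molecule gene of endothelial junctions and platelets, averaged 13.4 ± 5.37 CPM in shHrs tumours and 13.0 ± 3.28 CPM in shCTL tumours (SD, n = 5 each). Their log2 fold changes, 0.23 (SE 0.24) and 0.04 (SE 0.27), did not pass the threshold.

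**Figure D3:**
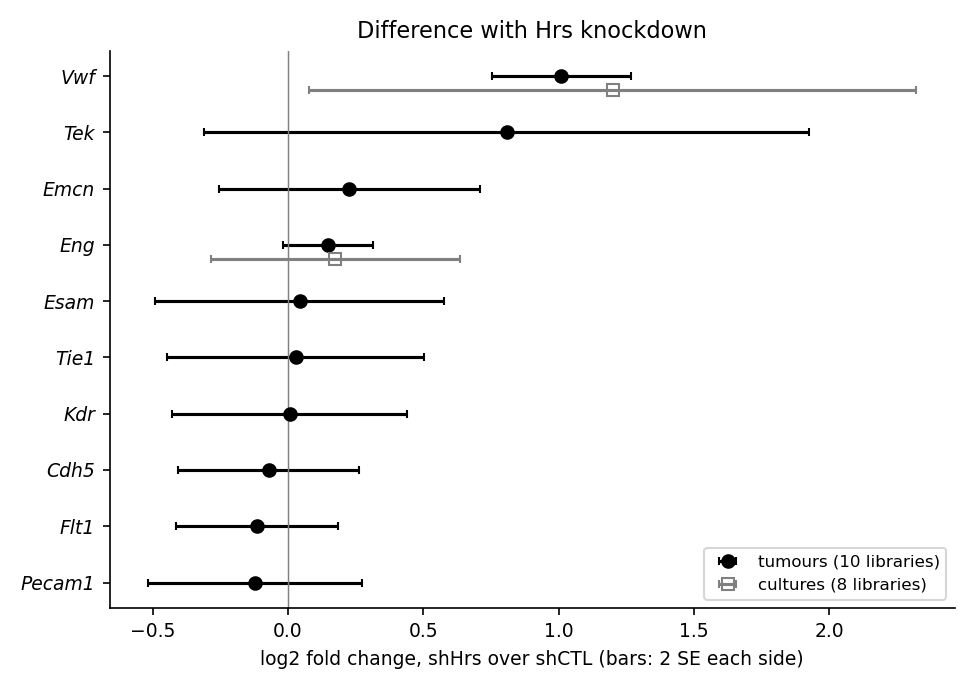
Log2 fold change of shHrs over shCTL for each endothelial gene in tumours and, for the genes that passed the filter there, in cultures; bars span 2 standard errors on each side. In tumours the bar of Vwf lies wholly above 0, and the bars of the other 9 genes cross 0. In cultures the bar of Vwf spans 0.08 to 2.32, although its unadjusted p by edgeR was 0.0614, and the bar of Eng crosses 0.

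Taken as a group, the 8 genes at or near 0 in culture had 0 calls in tumours by edgeR, 0 at an unadjusted p under 0.05, 0 by DESeq2 and 0 by limma voom. Over all genes tested the shares were 0.545%, 14.1%, 4.15% and 0.59%, so 0 of 8 is close to the background. Their median log2 fold change was 0.0169, with 5 positive and 3 negative, beside a median of 0.00746 and 51.5% positive over all genes tested. The counts of signs moved with single tumours, to 1 positive and 7 negative without shHrs tumour 4 and to 2 positive and 6 negative without shCTL tumour 1. Their summed level was 153 ± 36.4 CPM in shHrs tumours and 156 ± 30.1 CPM in shCTL tumours (SD, n = 5 each).

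Vwf was also set against that sum, tumour by tumour. The ratio of Vwf to the summed level of the 8 genes was 0.438, 0.635, 0.495, 0.400 and 0.644 in shHrs tumours, against 0.342, 0.196, 0.285, 0.213 and 0.226 in shCTL tumours. It averaged 0.522 ± 0.112 in shHrs tumours and 0.252 ± 0.0603 in shCTL tumours, and the groups did not overlap. Vwf was taken for this ratio because it differed, and the sum was close between the groups. The ratio therefore largely restates the difference of Vwf and is no further test of it. The shHrs tumour with the highest sum, tumour 4, had the lowest ratio of its group, 0.400, and still lay above the highest shCTL ratio, 0.342.

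**Figure D4:**
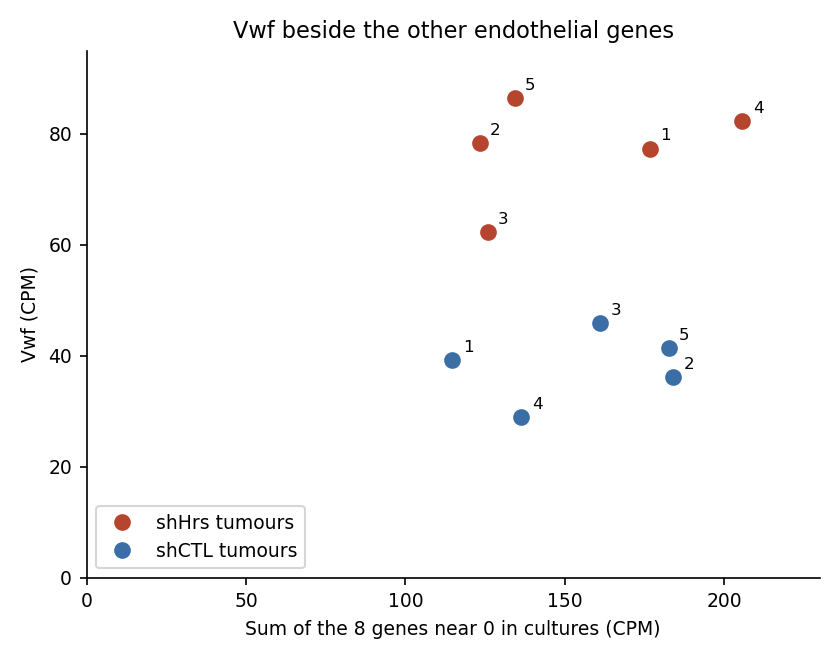
Vwf in CPM against the summed CPM of the 8 endothelial genes at or near 0 in culture, 1 point per tumour, with shHrs and shCTL tumours marked apart. The summed level spans 123.3 to 205.7 CPM in shHrs tumours and 114.7 to 184.1 CPM in shCTL tumours, while Vwf separates the groups.

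Platelets also carry Vwf protein and some of its RNA, so markers of other cells were read beside it. Of 5 platelet genes tested, 0 passed the threshold by edgeR, DESeq2 or limma voom. An unadjusted p under 0.05 was reached by 1, the integrin gene Itgb3, at 43.8 ± 4.14 CPM in shHrs tumours and 35.3 ± 4.97 CPM in shCTL tumours. The summed platelet list ran from 48.8 to 71.2 CPM in shHrs tumours and from 35.3 to 76.2 CPM in shCTL tumours. Most of that sum is Itgb3, which cultures held at 37.5 CPM, so the sum is not a level of platelets. The others tested had log2 fold changes of -0.06 for Pf4, -1.53 for Ppbp, 0.31 for Itga2b and 0.07 for Gp1bb. Pf4, which was near 0 in cultures, averaged 10.2 ± 6.47 CPM in shHrs tumours and 10.6 ± 12.3 CPM in shCTL tumours. The erythroid list ran from 27.8 to 147 CPM in shHrs tumours and from 58.1 to 1871 CPM in shCTL tumours. Of its 4 tested genes 0 were called by edgeR, 4 had an unadjusted p under 0.05, 4 were called by DESeq2 and 0 by limma voom. All of the 4 were lower in shHrs tumours. The skeletal muscle list ran from 66.8 to 1199 CPM in shHrs tumours and from 50.7 to 312.5 CPM in shCTL tumours. Of its 14 genes 0 were called by edgeR, DESeq2 or limma voom, and 6 had an unadjusted p under 0.05, all 6 higher in shHrs tumours. The log2 fold change was positive for 13 of the 14, with a median of 2.14. Over all genes tested in tumours, 14.1% had an unadjusted p under 0.05 and 4.15% were called by DESeq2. The part of platelets, erythroid cells and muscle in the difference of Vwf was not tested.

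Cultured melanoma cells gave no call for Vwf or Eng. Vwf had 3.39 and 13.9 CPM in shHrs cultures of batch 1, against 2.67 and 1.65 CPM in shCTL cultures of that batch. In batch 2 it had 1.63 and 1.13 CPM in shHrs cultures, against 0.775 and 1.29 CPM in shCTL cultures. A single shHrs culture of batch 1 stood above the other 7. The log2 fold change over both batches was 1.20 (SE 0.56, adjusted p = 0.392 by edgeR with Benjamini-Hochberg adjustment), and 0.49 without that culture. Within batch 1 it was 1.97 (SE 0.67) and within batch 2 it was 0.36 (SE 0.69), neither past the threshold, where 0.0% of genes were called in batch 1 and 4.03% in batch 2.

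Eng had 342 and 314 CPM in shHrs cultures of batch 1, against 378.5 and 408 CPM in shCTL cultures of that batch. In batch 2 it had 543 and 426 CPM in shHrs cultures, against 346 and 266 CPM in shCTL cultures. The order of the groups was thus opposite in the batches, with log2 fold changes of -0.27 (SE 0.25) in batch 1 and 0.62 (SE 0.25) in batch 2 and 0.17 (SE 0.23) over both. Of 12617 genes tested in cultures, 0 were called by edgeR, which is 0.0%, with 1680 at an unadjusted p under 0.05, 301 called by DESeq2 and 5 by limma voom. Of all genes tested these are 13.3%, 2.39% and 0.0396%. Vwf and Eng were called by none of these tools.

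The effect in tumours minus the effect in cultures was -0.17 (SE 0.43) on the log2 scale for Vwf, with an adjusted p of 0.894 by edgeR with Benjamini-Hochberg adjustment, so a difference between them was not shown. For Hgs itself that value was -0.815 (SE 0.21, adjusted p = 0.0407 by the same test, 0.00885 to 0.109 over the alternatives). The measured knockdown was thus deeper in tumours, so the effects on Vwf were not compared at equal knockdown. In this comparison 3.61% of 14458 genes were called. In absolute terms, mean Vwf was 39.0 CPM higher in shHrs than in shCTL tumours, and 3.42 CPM higher in shHrs than in shCTL cultures.

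Most of the endothelial genes went up and down together from tumour to tumour. Over the 10 tumours, with each group's mean removed, the 28 pairs of the 8 genes at or near 0 in culture had a median Pearson r of 0.789, and all 45 pairs of the 10 genes one of 0.398. The highest was Pecam1 with Cdh5, at 0.973. Toward the 8 genes, the median r was 0.90 for Esam, 0.867 for Pecam1, 0.864 for Cdh5, 0.849 for Emcn, 0.834 for Tie1 and 0.802 for Tek. Kdr had 0.593 and Flt1 0.262, close to Vwf at 0.287 and Eng at 0.279. These values are descriptions over 10 tumours that share libraries and scaling, and tumour shHrs 4 was the highest of the 10 tumours in 6 of the 8 genes. It was the lowest in Flt1.

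**Figure D5:**
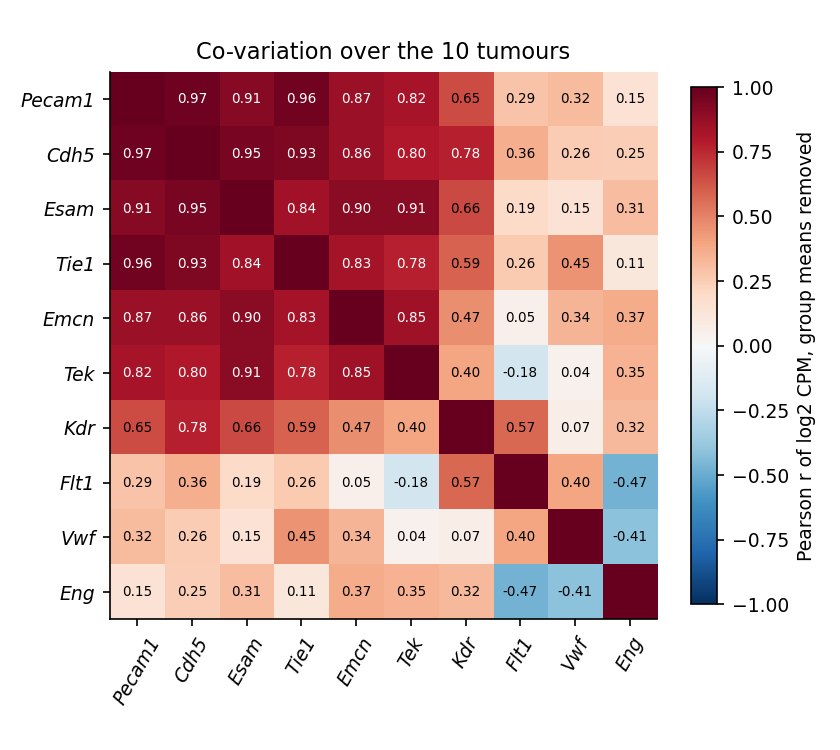
Pearson r of log2(CPM + 2) between each pair of endothelial genes over the 10 tumours, with group means removed; each cell is 1 pair. Pecam1, Cdh5, Tie1, Emcn, Esam and Tek form a block of high values, and Flt1, Vwf and Eng have low values with it.

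Among the shHrs tumours, tumour 4 was also the highest in markers of several other tissues. In shHrs tumour 4 the summed macrophage list was 1084 CPM and the leukocyte list 209 CPM, against at most 389.5 and 58.7 CPM in the other shHrs tumours. Its skeletal muscle list was 1199 CPM and its fibroblast list 1993 CPM, against at most 459 and 861 CPM in those tumours. Its erythroid list, at 78.8 CPM, was inside the range of the others. Of 14 macrophage genes and 9 leukocyte genes tested in tumours, 0 were called by edgeR, DESeq2 or limma voom, with 0 and 1 at an unadjusted p under 0.05. Over all shHrs tumours the macrophage list ran from 229 to 1084 CPM, and over shCTL tumours from 42.3 to 634 CPM. The fibroblast list ran from 269 to 1993 CPM in shHrs tumours and from 292 to 3328 CPM in shCTL tumours, with 0 of 11 genes called by edgeR, DESeq2 or limma voom and 0 at an unadjusted p under 0.05. Their part in the level of the endothelial genes was not tested.

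Outside the 10 genes, the 6 whose level over the 10 tumours, with group means removed, was most like the mean of the 10 genes were Notch4, an endothelial Notch receptor, at r = 0.982, then Tada2a at 0.981, Ttyh1 at 0.978, Arhgef15 at 0.978, Ehd2 at 0.977 and Itih5 at 0.975. Spearman's rho for them ran from 0.903 to 0.964. In cultures Ehd2 was at 49.1, Tada2a at 23.5 and Notch4 at 2.19 CPM, so not all of the 6 were specific to tumours. Ttyh1 was at 0.359, Arhgef15 at 0.327 and Itih5 at 0.0122 CPM there. Between shHrs and shCTL tumours none of the 6 passed the threshold, the lowest adjusted p by edgeR being 0.781.

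Of the other genes tied to vessels that were looked at, a single one passed the threshold by edgeR. The 5 lists of ligands, receptors, junction, matrix and transcription factor genes held 95 genes, of which 86 were tested in tumours. In cultures 61 of the 95 also passed the filter on low counts, so the lists are not genes of the vessels alone. Summed, the receptor, junction and transcription factor lists averaged 1513, 789.5 and 877 CPM in cultures and 1026, 535 and 651 CPM in tumours. The ligand and matrix lists averaged 320 and 922 CPM in cultures and 577.5 and 1725 CPM in tumours. Of the 86 genes tested in tumours 0 rose and 1 fell by edgeR, with 17 at an unadjusted p under 0.05, 7 called by DESeq2 and 1 by limma voom. Over all genes tested the shares were 0.545% by edgeR, 14.1% at an unadjusted p under 0.05, 4.15% by DESeq2 and 0.59% by limma voom, so nothing particular to these lists is read from the counts. Their median log2 fold change was -0.0191, beside 0.00746 over all genes tested. The gene that fell was Ephb4, the receptor for ephrin-B2 that marks venous endothelium. It averaged 22.9 ± 3.34 CPM in shHrs tumours and 37.1 ± 2.12 CPM in shCTL tumours (SD, n = 5 each), and its log2 ratio was -0.70 (SE 0.10, adjusted p = 0.0113 by edgeR with Benjamini-Hochberg adjustment). The groups did not overlap, a gap that 4.27% of all genes tested showed in either direction. Cultures averaged 30.5 CPM, so Ephb4 is not a gene of the vessels alone. In cultures its log2 ratio was -0.68 (SE 0.32), which did not pass the threshold (adjusted p = 0.393 by edgeR with Benjamini-Hochberg adjustment).

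Ligands of the receptors gave 0 calls by edgeR. Vegfa, the main growth factor for Kdr, averaged 289 ± 51.5 CPM in shHrs tumours and 279 ± 82.3 CPM in shCTL tumours, with an adjusted p of 0.947 by edgeR with Benjamini-Hochberg adjustment. Angpt2, which encodes an antagonist of Tek in many settings, averaged 39.4 ± 7.13 CPM in shHrs tumours and 58.1 ± 8.00 CPM in shCTL tumours (SD, n = 5 each), and its log2 ratio was -0.57 (SE 0.13). Its adjusted p of 0.0914 by edgeR missed the threshold, and DESeq2 called it. Cultures held Angpt2 at 60.5 ± 35.1 CPM and Vegfa at 199 ± 156 CPM (SD), so neither is a gene of the vessels alone. Of the 10 ligand genes tested, 0 were called by edgeR, 5 had an unadjusted p under 0.05, 4 of them lower in shHrs tumours, 2 were called by DESeq2 and 0 by limma voom. With 10 genes and 14.1% of all genes at such a p, this count gives a description only.

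Genes of mural cells, which wrap vessels, differed in direction among themselves, and their sum was close between the groups. The summed mural list averaged 223 ± 48.3 CPM in shHrs tumours and 226 ± 63.2 CPM in shCTL tumours, and the lymphatic list 50.7 ± 17.95 CPM in shHrs tumours and 52.6 ± 18.6 CPM in shCTL tumours. Cultures averaged 104 CPM for the mural list and 24.1 CPM for the lymphatic list, so neither sum is a level of those cells alone. Of 14 mural genes 0 were called by edgeR, 1 had an unadjusted p under 0.05, DESeq2 called 1 and limma voom 0. The gene DESeq2 called was Des, a muscle filament gene, at 33.5 ± 16.5 CPM in shHrs tumours and 12.9 ± 3.84 CPM in shCTL tumours, and cultures held it at 30.4 CPM. Tagln averaged 16.6 ± 4.17 CPM in shHrs tumours and 25.9 ± 12.6 CPM in shCTL tumours and was not called. Of 4 lymphatic genes 0 were called by any of the 3 tools and 0 had an unadjusted p under 0.05.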

How the data were processed

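The file used holds raw counts per gene symbol, deposited as whole numbers without normalization, for 23453 symbols and 18 libraries, all of them used. Per the submitters' processing notes, STAR 2.4.0h2, DESeq and mm10 were used. Counting tool, annotation and strand setting: not given in the sources used here. Reads of overlapping genes on either strand therefore cannot be separated. Genes with enough counts were selected with edgeR 4.0.16 (filterByExpr, minimum count 10, R 4.3.3), and libraries were scaled by TMM. The main test of shHrs against shCTL was the two-sided quasi-likelihood F test of edgeR, adjusted by Benjamini-Hochberg across every gene tested, with 0.05 as threshold. Tumours were fitted alone, cultures with batch as a term, and the difference between their effects over all 18 libraries with a mean per group. A standard error is the log2 fold change divided by the square root of F. CPM use TMM-scaled sizes over all 18 libraries, and log2 CPM carry a pseudocount of 2. Exon lengths are those of GENCODE mouse release M21 on GRCm38. The genes and the 17 lists (218 symbols, 2 matched through another symbol and 1 not used) were chosen with earlier results of these data known. The text names Hgs, the 10 genes, the 6 genes most like them, called list genes, and other ligands and markers picked after their values were seen. The steps were tested on simulated counts. Alternatives were DESeq2 1.42.0, limma 3.58.1 voom, other scalings, no filter, a replicate block and leaving out each library.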

Additional observations from a re-analysis of the deposited data

Results flagged for a closer look

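Values of single tumours that stood far from the others of their group were sought in 62 groups of 5 tumours, where chance flags about 1 in 20. In shHrs tumour 4, Tek was at 5.596 CPM, where the other shHrs tumours had 0.692 to 1.64 CPM, and Emcn was at 21.9 CPM, where they had 9.86 to 12.7 CPM. Among the shHrs tumours it also had the highest summed lists for lymphatic endothelium at 82.5 CPM, macrophages at 1084 CPM, leukocytes at 209 CPM and adipocytes at 102.5 CPM. Of the 10 tumours, shCTL tumour 5 was higher still for lymphatic endothelium, at 83.15 CPM, and for adipocytes, at 139 CPM. Cultures averaged 24.1 CPM for the lymphatic list, 17.2 CPM of it Pdpn, so its sum is not lymphatic endothelium alone. The summed list of endothelial receptors was highest in shHrs tumour 5, at 1149 CPM, where the other shHrs tumours had 1014 to 1041 CPM. Cultures averaged 1513 CPM for that list, so its sum is not a level of vessels. The summed keratinocyte list was at 2.67 CPM in shHrs tumour 1, where the others had at most 0.454 CPM. Among shCTL tumours, the summed list of endothelial transcription factors was at 771 CPM in tumour 1, where the others had 667 to 677 CPM. Cultures averaged 877 CPM for that list, 686 CPM of it Ets1, so this sum is not a level of vessels either. The summed skeletal muscle list was at 312.5 CPM in shCTL tumour 5, where the others had 50.7 to 105 CPM.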

How the results depend on the processing

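Replicate numbers gave no sign of pairing the samples: same-numbered tumours correlated between -0.628 and 0.439, and cultures at 0.158 and 0.0251 in the 2 batches. Differently numbered tumours correlated between -0.561 and 0.636. With 2 libraries per group and batch, the deviations of the cultures mirror each other, so their values decide little. Such correlations cannot exclude a pairing, which the labels do not give. With the replicate number as a block, 2 genes and 0 of the 10 endothelial genes were called in tumours, and Vwf had a log2 fold change of 1.02 (adjusted p = 0.0833 by edgeR, over a range of 1.74e-10 to 0.0833 for all alternatives). Ephb4 ranged from 2.85e-07 to 0.09, the last with the block. DESeq2 called 549 genes in tumours, and leaving out single tumours gave 32 to 158 calls, the most without shHrs tumour 4. In cultures, DESeq2 called 301 genes, limma voom 5, no filter 74 and batch 2 alone 520, and leaving out single cultures gave 0 to 164. For the difference between tumours and cultures, 522 genes were called, DESeq2 called 1410, and leaving out single libraries gave 125 to 2193. The summed level of the 10 genes, 0.19 as a log2 ratio of shHrs over shCTL tumours, reversed to -0.0246 without Vwf and Eng, and to -0.154 also without shHrs tumour 4, both chosen after seeing the data. Signs near 0 also reversed: Tie1 gave -0.0156 with limma voom and -0.0311 with the block, Eng gave -0.269 in batch 1 alone, and leaving out single libraries moved Kdr from -0.146 to 0.166, Tie1 from -0.185 to 0.144, Emcn from -0.0562 to 0.311 and Esam from -0.237 to 0.145 in tumours, and the tumour minus culture difference from -0.518 to 0.49 for Vwf and from -0.147 to 0.0456 for Eng. The cause was not tested. Depth limits Tek most, with 12 to 111 counts per tumour.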
